A study of Mus musculus with 24 samples.

Results

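The Sonic hedgehog pathway genes described here are 9 genes chosen by name: *Shh*, *Ptch1*, *Hhip*, *Boc*, *Cdon*, *Smo*, *Gli1*, *Gli2* and *Gli3*, of 54446 genes counted. Each of the 9 had enough counts to be tested in every comparison. RNA was sequenced from the brains of 12 mouse embryos at E14.5 (embryonic day), each dissected into the secondary prosencephalon (SP, which in development gives the telencephalon and hypothalamus) and the diencephalon, midbrain and hindbrain (DMH), which gave 24 libraries. The controls were *Tfap2b*+/+ and the mutants *Tfap2b*-/-, littermates from crosses of *Tfap2b*+/- mice, with 3 female and 3 male embryos of each genotype, and *Tfap2b* encodes the transcription factor AP-2beta. The mutation is a PGK-neo cassette within an exon of *Tfap2b*, present in every cell from conception, so no cell type or stage is singled out. Levels are given as CPM, counts of a gene per 1 M fragments counted on genes, normalised over the 24 libraries by the TMM method of edgeR.

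Sonic hedgehog is a secreted signal that patterns the ventral neural tube. It is made by the floor plate and by ventral forebrain domains, and it binds Patched 1 (*Ptch1*), which otherwise holds the membrane protein Smoothened (*Smo*) inactive at the primary cilium. Active Smoothened changes the balance of the zinc finger factors GLI2, mainly an activator, and GLI3, mainly a repressor. *Gli1*, *Ptch1* and *Hhip* are themselves transcribed in response to the signal, so their levels are commonly read as its output, and *Ptch1* and *Hhip* (a decoy receptor) dampen it. *Boc* and *Cdon* encode coreceptors that help Patched 1 to bind the ligand.

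Libraries contained 24.7 to 66.8 M fragments counted on genes (median 32.1 M). The lowest count of *Shh* was 56 and that of *Hhip* 81, while *Ptch1* had at least 1661 counts in every library, so the levels of *Shh*, *Hhip* and *Gli1* carry the largest counting error. *Tfap2b* was at 378 ± 61.0 CPM in DMH controls (SD, n = 6) and at 53.2 ± 2.48 CPM in DMH mutants (SD, n = 5), a fall of 2.85 on the log2 scale (edgeR, adjusted p = 2.5e-07). In SP it was at 3.89 ± 0.288 and 3.82 ± 0.735 CPM, so the SP counts do not check the genotype labels.

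Some libraries stood apart. Female mutant 3 entered no comparison of groups. Its SP library entered the correlations between members, and both libraries are described on their own at the end. The study left the same embryo out. Caudal hindbrain *Hox* genes summed to 0.0378 to 0.246 CPM in 4 DMH libraries (female control 1, female mutants 1 and 2, male mutant 2) and to 237 to 422 CPM in the other 7, so the mutants hold 3 of these 4. Telencephalon markers summed to 1732 to 2962 CPM in SP against 86.9 to 168 CPM in DMH, and markers of diencephalon, midbrain and hindbrain to 660 to 1421 CPM in DMH against 17.8 to 162 CPM in SP, where the highest was male control 1 (female mutant 3 aside, at 181 CPM). The 2 libraries labelled female control 2 held 122 (DMH) and 133 CPM (SP) of Y-linked transcripts, against 0 to 0.0351 CPM in the other 10 female libraries. *Xist*, expressed from the inactive X chromosome, was at 0.0907 and 0.0341 CPM in them, against 174 to 914 CPM in the other female and 0 to 0.275 CPM in the male libraries, so both measures lay with the males. The label was kept, and this embryo counts among the 3 female controls. Hypothalamus markers went against the labelled regions, at 95.7 to 227 CPM in DMH and 41.1 to 108 CPM in SP, with 4 of 6 called higher in DMH and 1 in SP (median log2 fold change 2.54). The embryos are separate animals, so in comparisons within a region p-values measure the spread between embryos. The fits that use both regions, between regions and for the interaction of genotype and region, took the 2 libraries of an embryo as independent. A fit between regions with the embryo as a block is given at the end.

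The members lie on 8 chromosomes (GRCm38, GENCODE vM21, full gene spans). *Shh* is at chr5:28456815-28467256 on the minus strand, *Ptch1* at chr13:63508328-63573598 (minus), *Hhip* at chr8:79965851-80058006 (minus), *Boc* at chr16:44485049-44558897 (minus) and *Cdon* at chr9:35421128-35507652 (plus). *Smo* is at chr6:29735503-29761365 (plus), *Gli1* at chr10:127329882-127341974 (minus), *Gli2* at chr1:118834132-119053619 (minus) and *Gli3* at chr13:15463235-15730026 (plus). RefSeq promoter windows of 300 bases (GRCm38.p6, 250 before the start and 50 after it) matched 6 of the 9 members, *Ptch1*, *Hhip*, *Cdon*, *Smo*, *Gli2* and *Gli3*. The bases before the start lay outside the GENCODE gene for *Hhip*, *Smo* and *Gli2*, while for *Ptch1*, *Cdon* and *Gli3* they lay inside it, past its 5′ end, so these 3 windows belong to a start within the annotated gene. The AP-2 letters GCCNNNGGC, searched on both strands, were in 16.6% of 32851 windows and in 1 of these 6, that of *Hhip*. The GLI letters GACCACCCA were in 0.253% of windows, GANCACCCA, which includes them, in 1.02%, and neither was in the 6 windows. The 250 bases before the start are shown for *Hhip*, whose AP-2 match is in capitals, and for *Gli2*, which has none, as examples of a member higher in DMH and a member higher in SP (chr8:80058009-80058258 and chr1:119053620-119053869, both minus strand, 5′ to 3′).
Hhip: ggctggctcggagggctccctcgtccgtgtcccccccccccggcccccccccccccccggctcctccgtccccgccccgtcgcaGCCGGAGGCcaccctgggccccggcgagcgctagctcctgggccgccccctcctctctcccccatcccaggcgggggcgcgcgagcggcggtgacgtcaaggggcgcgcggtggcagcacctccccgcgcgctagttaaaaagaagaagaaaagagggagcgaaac
Gli2: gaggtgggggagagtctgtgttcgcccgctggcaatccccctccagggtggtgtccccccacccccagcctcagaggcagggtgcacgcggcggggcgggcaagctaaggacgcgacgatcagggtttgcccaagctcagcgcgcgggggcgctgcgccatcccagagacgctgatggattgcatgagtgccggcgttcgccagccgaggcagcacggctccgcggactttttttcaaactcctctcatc
A second match in *Hhip*, GCCGCCGGC, lay after the start, at 25 bases from it, while the printed one begins 166 bases before it. These are matches of letters, not binding sites.

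Which parts of the pathway were transcribed in which region was asked first, by comparing 11 DMH with 11 SP libraries. Sex and genotype were covariates, and the fit had no term for the embryo that gave both libraries. A gene was called where its p, adjusted over all genes by Benjamini-Hochberg, was under 0.2 and its log2 fold change was beyond 0.5 in either direction, thresholds that the study used. Of the 9 members 8 were called, against a background of 36.3% of the 17465 genes tested. The ligand *Shh* and the response genes *Ptch1* and *Hhip* were higher in DMH (3 members, background 21.5%), and *Boc*, *Cdon*, *Smo*, *Gli2* and *Gli3* were higher in SP (5 members, background 14.8%). *Gli1* was not called. The regions hold different mixtures of cells, and in such bulk samples fewer cells of a type and less RNA per cell cannot be told apart.

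*Shh* was at 1.42 to 5.94 CPM in SP (median 3.84, n = 11) and at 6.68 to 11.5 CPM in DMH (median 8.89, n = 11). The 2 regions did not overlap, and DMH was higher in 11 of 11 embryos. *Shh* thus differed by 1.23 on the log2 scale, with an SE of 0.13 (adjusted p = 1.7e-08 in edgeR). The lowest library of all was male SP control 3, and without it and male SP mutant 3, whose markers of meninges summed to 135 CPM against 443 to 671 CPM in the other SP libraries, the log2 fold change was 1.15.

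*Ptch1*, the receptor, was at 54.7 to 85.6 CPM in SP (median 68.9) and at 109 to 133 CPM in DMH (median 126). It was higher in DMH in 11 of 11 embryos without overlap, by 0.82 on the log2 scale with an SE of 0.05 (adjusted p = 1.8e-12 in edgeR). *Hhip*, which sequesters hedgehog ligands, was at 2.57 to 4.72 CPM in SP (median 3.55) and at 4.28 to 10.8 CPM in DMH (median 7.18). Its ranges overlapped, yet DMH was higher within each of 11 embryos (0.87 on the log2 scale, SE 0.13, adjusted p = 3.6e-06 in edgeR). The value was 1.07 without the 4 DMH libraries low in caudal *Hox* and 0.61 in mutant embryos alone, which hold most of those 4 libraries.

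*Gli1*, the response gene that encodes an activator, was at 3.53 to 6.02 CPM in SP (median 4.69) and at 4.42 to 6.44 CPM in DMH (median 5.41). It was higher in DMH in 6 embryos and in SP in 5. The log2 fold change was 0.18 with an interval from -0.02 to 0.37 (95%, edgeR, adjusted p = 0.093), which lies below 0.5, while the intervals of *Ptch1* (0.71 to 0.93) and *Hhip* (0.59 to 1.14) lie above it.

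**Figure D1:**
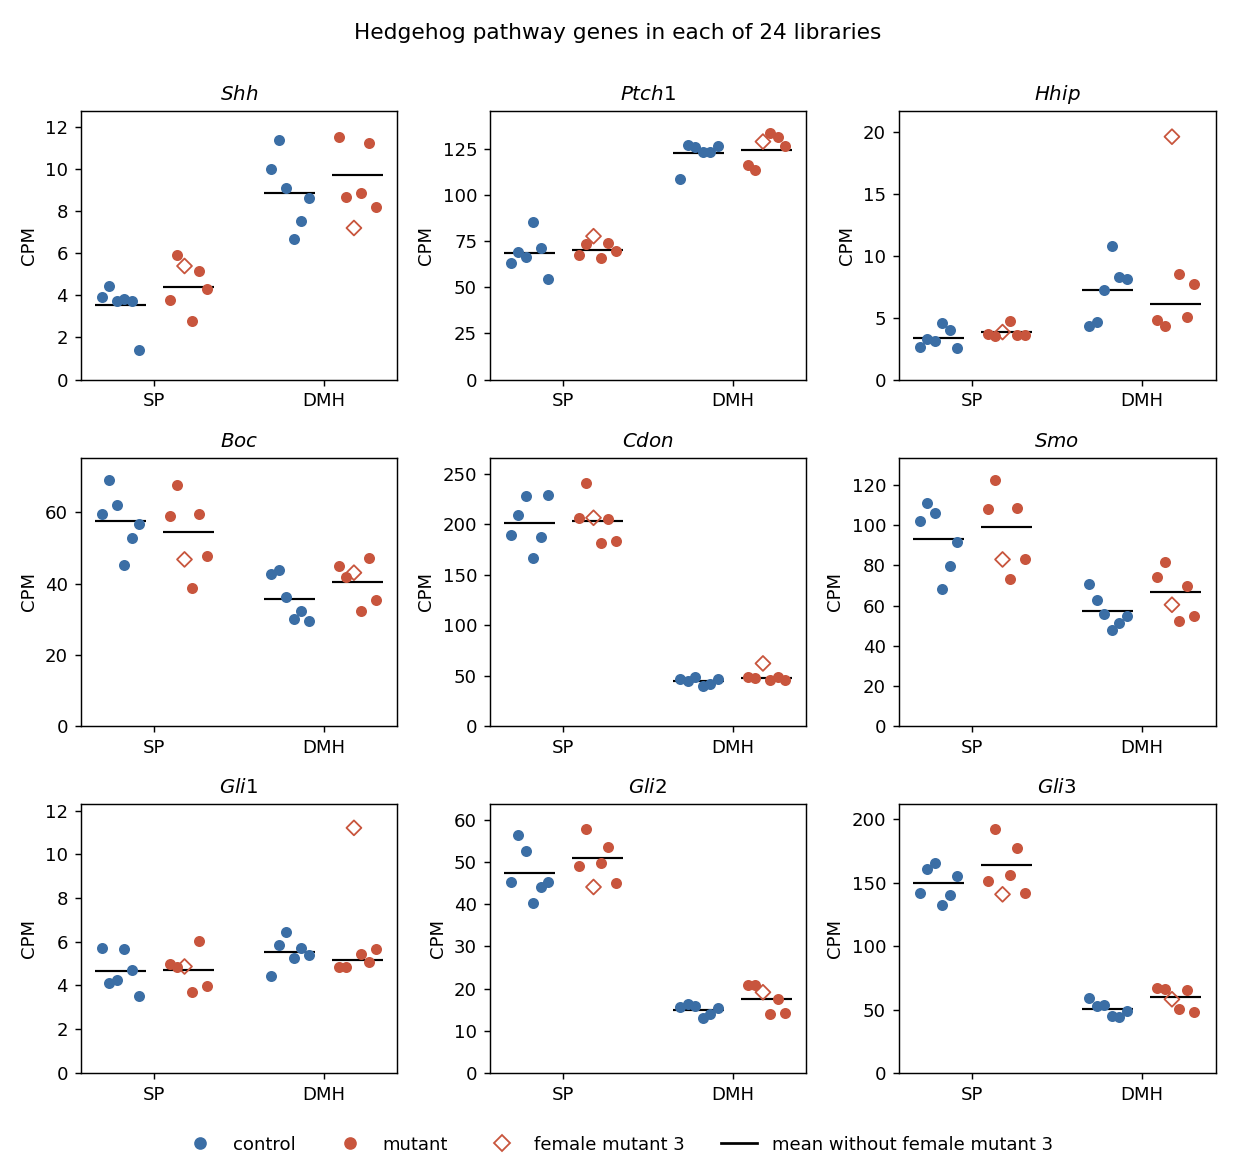
Level of each pathway gene in each of 24 libraries, in CPM on a linear axis from 0, with controls in blue, mutants in red, female mutant 3 as an open diamond and the mean of each group without female mutant 3 as a line. *Shh* and *Ptch1* sit higher in DMH, *Cdon*, *Gli2* and *Gli3* higher in SP, controls and mutants overlap in every panel, and female mutant 3 stands above in DMH for *Hhip* (19.6 CPM) and *Gli1* (11.2 CPM).

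The coreceptors went the other way. *Cdon* was at 167 to 241 CPM in SP (median 205) and at 39.8 to 49.1 CPM in DMH (median 46.4), with no overlap. At -2.15 on the log2 scale, with an SE of 0.05 (adjusted p = 1.9e-20 in edgeR), its difference was the farthest from 0 among the 9 members, a 4.45-fold difference. *Boc* was at 38.8 to 69.1 CPM in SP (median 58.9) and at 29.4 to 47.1 CPM in DMH (median 36.3), which overlapped, though SP was higher in 11 of 11 embryos. The difference of -0.59, with an SE of 0.07 (adjusted p = 7.2e-08 in edgeR), lay near the threshold. In mutant embryos alone, which hold most of the DMH libraries low in caudal *Hox*, it was -0.47 and no longer called.

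*Smo*, which passes the signal inward, was at 68.3 to 122 CPM in SP (median 102) and at 47.9 to 81.6 CPM in DMH (median 56.0). The ranges overlapped, but SP was higher in 11 of 11 embryos, by 0.66 on the log2 scale (SE 0.06, edgeR, adjusted p = 2.3e-09). *Gli2* was at 40.3 to 57.9 CPM in SP (median 49.1) and at 13.1 to 20.95 CPM in DMH (median 15.7), and *Gli3* at 132 to 193 CPM in SP (median 156) and at 44.4 to 67.1 CPM in DMH (median 53.1). Neither overlapped between the regions. Both were lower in DMH in 11 of 11 embryos, *Gli2* by a log2 fold change of -1.63 (SE 0.06) and *Gli3* by one of -1.54 (SE 0.06), with adjusted p of 4.9e-17 and 9.0e-17 in edgeR.

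**Figure D2:**
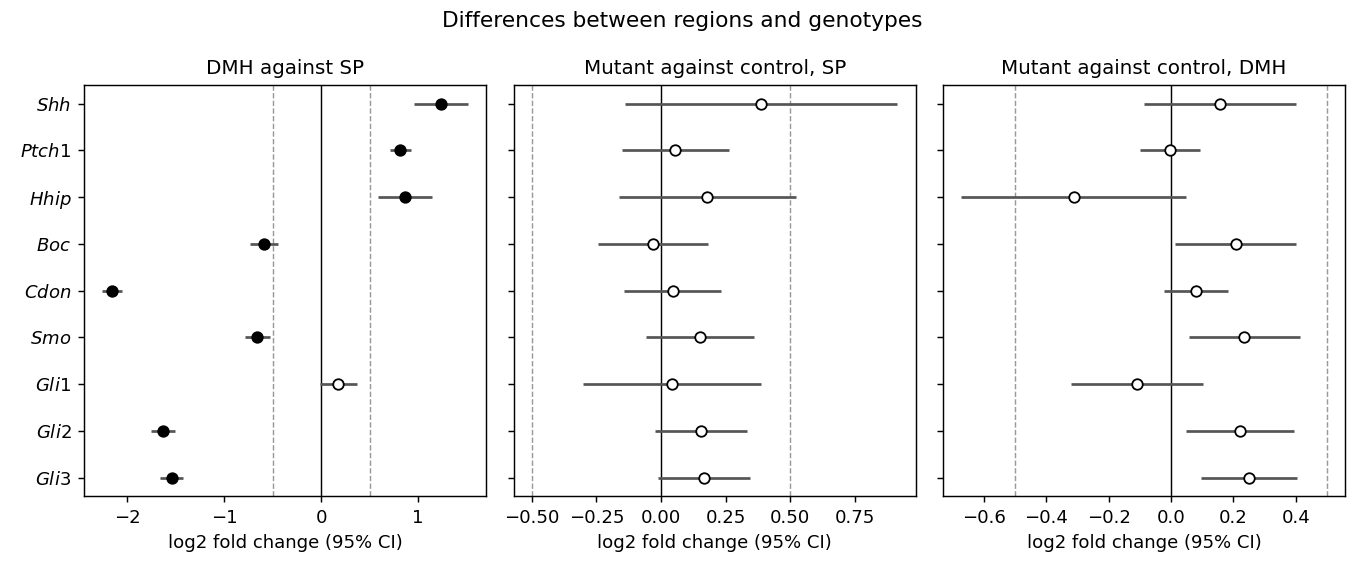
Log2 fold changes (points) with 95% confidence intervals (bars) of the 9 genes for DMH against SP, mutant against control in SP and mutant against control in DMH, each panel with its own axis. Filled points passed both thresholds, dashed lines mark an absolute log2 fold change of 0.5, and filled points appear only in the first panel, at 8 of 9 genes.

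Levels of different members can be compared only per length, here as CPM per kb of the union of a gene's annotated exons, a length that may exceed that of the transcripts present. In SP the order of mean levels was *Cdon* (26.2 ± 3.00 CPM per kb, SD, n = 11), *Smo* (17.04), *Gli3* (16.3), *Boc* (12.6), *Gli2* (7.14), *Ptch1* (4.88), *Shh* (1.38), *Gli1* (0.937) and *Hhip* (0.392). Of the neighbours in this order, *Smo* and *Gli3* were not separated beyond their spread, with *Smo* above in 7 of 11 libraries, while *Gli2* was above *Ptch1* and *Shh* above *Gli1* in 10 of 11 with overlapping ranges. In DMH the order was *Smo* (10.9 ± 1.96 CPM per kb), *Ptch1* (8.70), *Boc* (8.50), *Cdon* (5.96), *Gli3* (5.70), *Shh* (3.25), *Gli2* (2.35), *Gli1* (1.07) and *Hhip* (0.737). There *Ptch1* was above *Boc* in 6 of 11 libraries and *Cdon* above *Gli3* in 7 of 11, so these neighbours were not separated either. *Smo* was above *Ptch1* in 9 and *Gli1* above *Hhip* in 10 of 11, again with overlapping ranges.

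Ratios within a library do not depend on its depth. The ratio of *Gli3* to *Gli1* per length was 12.1 to 22.96 in SP (median 18.7) and 4.06 to 7.23 in DMH (median 4.74), which did not overlap. *Ptch1* over *Smo* was 0.237 to 0.497 in SP (median 0.249) and 0.552 to 1.02 in DMH (median 0.890). The coreceptors changed order, since *Cdon* over *Boc* was 1.74 to 2.70 in SP and 0.585 to 0.910 in DMH. *Gli3* over *Gli2* differed little, at a median of 2.27 in SP and 2.43 in DMH, with overlapping ranges.

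**Figure D3:**
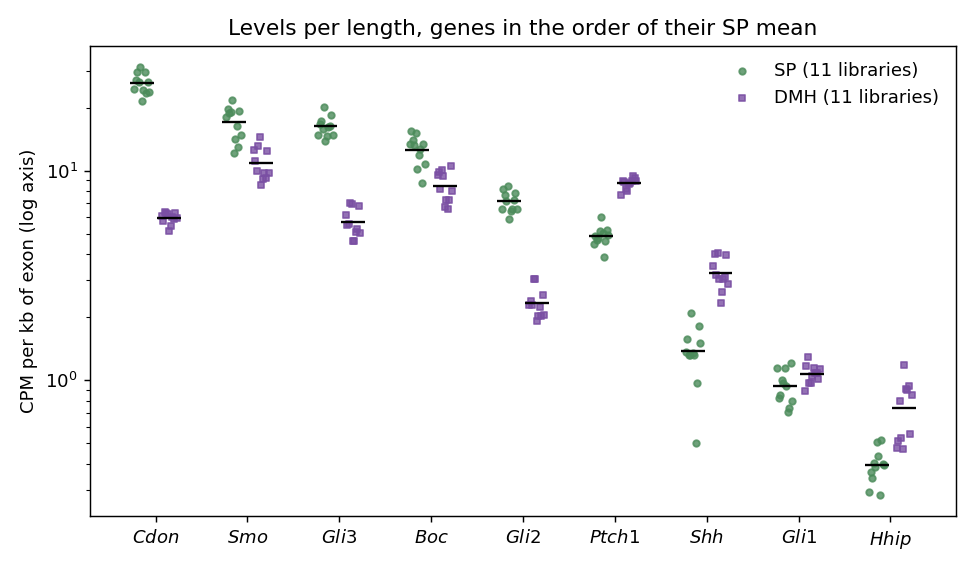
Levels in CPM per kb of exon on a log axis, 11 SP libraries (green circles) and 11 DMH libraries (purple squares) per gene, with the mean as a line and genes ordered by their SP mean. *Cdon* is at the top in SP (26.2) and falls to 5.96 in DMH, while *Ptch1* rises from 4.88 to 8.70 and *Shh* from 1.38 to 3.25.

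Other genes of the pathway were taken from 6 lists with 45 genes tested, of which 25 were called between the regions, against the 36.3% called, 21.5% higher in DMH and 14.8% higher in SP over all genes. Among the other ligands and genes of ligand release, 2 of 6 tested were higher in DMH and none in SP (median log2 fold change 0.28, against 0.01 over all genes). *Scube2*, which helps to release the lipid-modified ligand, was higher by 1.92 (SE 0.09) and *Dhh*, a second ligand, by 0.93 (SE 0.20), the latter at a median of 0.361 CPM in SP and 0.786 CPM in DMH. *Ihh*, the third ligand, had counts too low to be tested.

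Among the other receptors and coreceptors 4 of 4 were called, 3 higher in DMH and 1 in SP (median 0.92). *Gas1*, a coreceptor like *Boc* and *Cdon*, was at a median of 87.4 CPM in SP and 22.1 CPM in DMH (log2 fold change -1.74, SE 0.08), the same side as both of them. The endocytic receptor gene *Lrp2* was higher in DMH by 1.66 (SE 0.12) and *Gpc3*, which encodes a glypican that binds hedgehog ligands, by 0.88 (SE 0.13).

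Of 15 cytoplasmic and ciliary regulators 3 were called, all higher in SP: *Kif7*, the ciliary kinesin of the pathway (-0.91, SE 0.06), *Evc* (-1.20, SE 0.08) and *Evc2* (-0.66, SE 0.06), which encode a complex at the base of the cilium. This share was below the 36.3% of all genes, and the median was -0.07. *Sufu*, the inhibitor that holds GLI proteins, was at -0.50 (SE 0.06), just short of the fold threshold.

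Ventral patterning genes, known to require hedgehog signalling in the neural tube, were higher in DMH in 6 of 8 tested and higher in SP in 1 (median 3.39). *Foxa2*, which marks the floor plate, had a median of 0.0328 CPM in SP and 5.17 CPM in DMH, and *Nkx6-1* one of 0.522 and 18.98 CPM. *Nkx2-1*, a gene of the ventral forebrain, went the other way, with a median of 37.7 CPM in SP and 21.02 CPM in DMH (-0.84, SE 0.19). Dorsal patterning genes were also higher in DMH in 6 of 8 and higher in SP in 1, *Wnt3a* (median 2.38), so the direction did not separate ventral from dorsal lists. Of 4 proliferation targets *Ccnd2* (-2.20, SE 0.10) and *Mycn* (-1.14, SE 0.06) were higher in SP and none in DMH (median -0.54).

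Whether loss of *Tfap2b* altered the pathway was asked next. In SP, 6 controls were compared with 5 mutants of both sexes with sex as a covariate. None of the 9 members was called by edgeR, against a background of 0% of 16973 genes, or by DESeq2, which called 27 of 16941 genes. No member reached an unadjusted p under 0.05 in edgeR, as 5.07% of all genes did. Log2 fold changes ran from -0.03 (*Boc*) to 0.39 (*Shh*). The intervals of *Ptch1* (-0.15 to 0.26), *Boc*, *Cdon*, *Smo*, *Gli1*, *Gli2* and *Gli3* lay within an absolute value of 0.5, while those of *Shh* (-0.14 to 0.92) and *Hhip* (-0.16 to 0.52) reached past it.

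*Shh* was at 1.42 to 4.47 CPM in SP controls (median 3.80) and at 3.76 and 5.94 CPM in female and 2.78, 5.16 and 4.29 CPM in male SP mutants. Controls and mutants overlapped. The lists of hypothalamus markers and ventral patterning genes share *Nkx2-1*. In male SP control 3, at 1.42 CPM, hypothalamus markers summed to 41.1 CPM, against 77.8 to 117 CPM in the other 11 SP libraries, and ventral patterning genes to 31.5 CPM, against 61.5 to 86.0 CPM. Without this library and male SP mutant 3 the log2 fold change of *Shh* between genotypes was 0.19 (SE 0.19) in place of 0.39 (SE 0.24), and the part of the dissection in this was not tested.

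**Figure D4:**
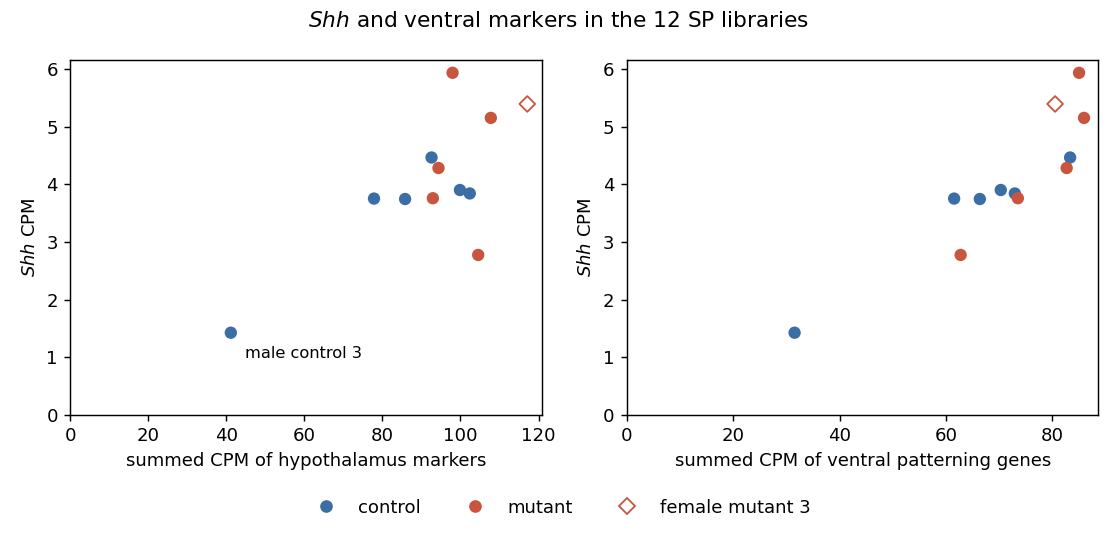
*Shh* in CPM against the summed CPM of hypothalamus markers (left) and of ventral patterning genes (right) in the 12 SP libraries, both axes from 0, with controls in blue, mutants in red and female mutant 3 as an open diamond. Male control 3 is lowest on both axes of both panels (1.42 CPM of *Shh*, 41.1 and 31.5 CPM of markers), and the genotypes overlap. *Nkx2-1* is in both lists.

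The genes most like *Shh* by Pearson r of log2(CPM + 0.5) over the 11 SP libraries, among 16973 genes, were D030055H07Rik (r = 0.97), *Nkx2-1* (0.96), *Lhx8* (0.95), *Fgf15* (0.93) and *Six3os1* (0.93). Without male SP control 3 these were 0.92, 0.86, 0.81, 0.84 and 0.74. In DMH they were *Rad1* (0.96), *Rnf41* (0.96), *Cwc15* (0.96), *Riok2* (0.96) and *Szrd1* (0.95) among 17223 genes. The points share their libraries and dissection, and so many genes were searched that these values are a description only.

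In DMH, 6 controls and 5 mutants were compared. None of the members was called by edgeR, against a background of 0.0523% of 17223 genes, or by DESeq2, which called 51 of 17208. In edgeR 4 members (*Boc*, *Smo*, *Gli2* and *Gli3*) had an unadjusted p under 0.05, each with an adjusted p of 0.33. At that level 15% of all genes passed. Log2 fold changes ran from -0.31 (*Hhip*, SE 0.17) to 0.25 (*Gli3*, SE 0.07), and of the 9 intervals only that of *Hhip*, from -0.67 to 0.05, reached past 0.5. The intervals for the output genes *Ptch1* (-0.10 to 0.09) and *Gli1* (-0.32 to 0.10) held 0.

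*Gli3* was at 44.4 to 59.3 CPM in DMH controls (median 51.0), at 67.1 and 66.6 CPM in female mutants 1 and 2 and at 50.5, 65.5 and 48.1 CPM in the male mutants. *Gli2* was at 13.1 to 16.3 CPM in controls (median 15.5), at 20.8 and 20.95 CPM in these female mutants and at 13.9, 17.6 and 14.1 CPM in the males. The 3 high mutants were in both cases the libraries low in caudal *Hox*. The control low in caudal *Hox* was the highest control for *Gli3* (59.3 CPM) but not for *Gli2* (15.7 CPM).

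*Smo* was at 47.9 to 70.6 CPM in controls (median 55.5), at 74.1 and 81.6 CPM in female mutants 1 and 2 and at 52.1, 69.7 and 55.0 CPM in the males. *Boc* was at 29.4 to 43.9 CPM in controls (median 34.3), at 44.8 and 41.8 CPM in the females and at 32.4, 47.1 and 35.5 CPM in the males. Both overlapped between genotypes.

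Split by caudal *Hox* in place of genotype, *Smo* was at 69.7 to 81.6 CPM in the 4 low libraries and at 47.9 to 62.9 CPM in the other 7, *Gli3* at 59.3 to 67.1 against 44.4 to 53.6 CPM, and *Gli1* at 4.42 to 5.08 against 5.26 to 6.44 CPM. These 3 of the 9 members did not overlap, and over all genes tested in DMH 21.9% did not. *Gli2* (15.7 to 20.95 against 13.1 to 16.3 CPM), *Boc* (41.8 to 47.1 against 29.4 to 43.9 CPM) and *Hhip* (4.28 to 5.05 against 4.66 to 10.8 CPM) overlapped, as did *Shh*, *Ptch1* and *Cdon*. In SP of the same 4 embryos *Gli3* was at 142 to 193 CPM, against 132 to 166 CPM in SP of the other 7, and *Smo* at 102 to 122 against 68.3 to 111 CPM. *Gli1*, lower in the low libraries in DMH, was at 4.85 to 6.02 CPM in SP of those embryos against 3.53 to 5.68 CPM, so its medians lay the other way round in SP. Without the 4 libraries, 5 controls and 2 mutants remained, and the log2 fold changes between genotypes were 0.038 for *Smo* (SE 0.077), -0.038 for *Gli2* (SE 0.094), 0.079 for *Gli3* (SE 0.067) and 0.13 for *Boc* (SE 0.09). With the caudal *Hox* level as a covariate they were 0.073, 0.12, 0.11 and 0.082. The cause of these differences was not tested.

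**Figure D5:**
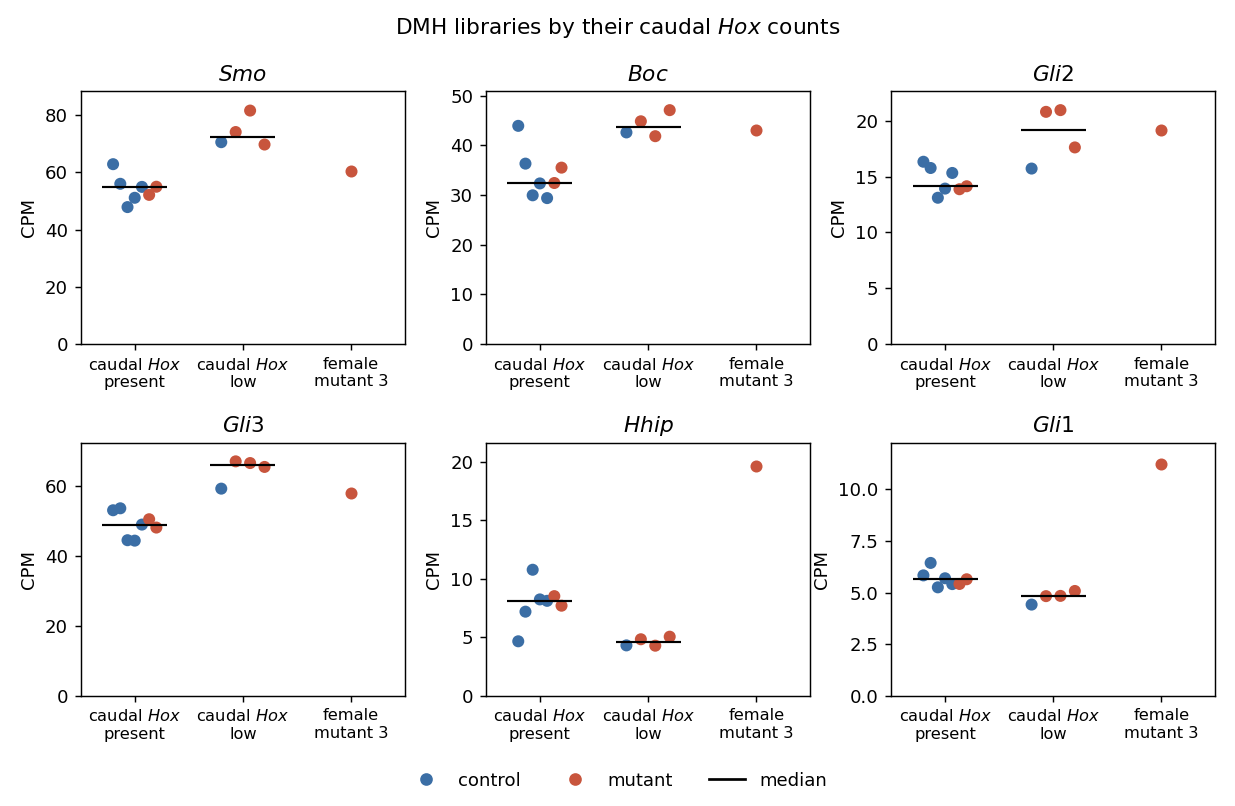
Level of *Smo*, *Boc*, *Gli2*, *Gli3*, *Hhip* and *Gli1* in the 12 DMH libraries, in CPM from 0, with 7 libraries that hold caudal *Hox* counts, 4 that are low in them and female mutant 3 on its own, controls in blue, mutants in red and the median as a line. The low libraries sit above the others for *Smo* (69.7 to 81.6 CPM) and *Gli3* (59.3 to 67.1 CPM) and below them for *Gli1* (4.42 to 5.08 CPM).

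In each sex alone none of the 9 members was called by edgeR or by DESeq2. In females the background in edgeR was 0.0181% of genes called in SP and 0.00596% in DMH, and in males it was 0% in SP and 0.0236% in DMH. DESeq2 called 6 genes in SP and 69 in DMH of females, and 7 in SP and 13 in DMH of males. In female DMH, 3 controls against 2 mutants, 3 members had an unadjusted p under 0.05, as had 8.9% of all genes: *Gli2* (log2 fold change 0.40, SE 0.08), *Smo* (0.31, SE 0.10) and *Gli3* (0.28, SE 0.08), each with an adjusted p of 0.55. Both of these mutants and 1 of these controls were low in caudal *Hox*. In male DMH *Boc* alone did, as did 2.89% of all genes (0.30, SE 0.13, edgeR, adjusted p = 0.87), and in SP no member did in either sex, as 2.58% of all genes did in females and 3.65% in males. Without the female control 2 that held Y-linked transcripts, none was called in either female comparison, and *Gli2*, *Smo* and *Gli3* in DMH were at 0.41, 0.30 and 0.25.

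The difference between genotypes was also compared between regions and between sexes. None of the 9 members was called for the interaction of genotype and region, against a background of 0.00565% (1 gene of 17684, *Tfap2b*), with log2 differences of DMH from SP between -0.45 (*Hhip*, interval -0.98 to 0.07) and 0.24 (*Boc*, interval -0.04 to 0.52), and none had an unadjusted p under 0.05, as 2.06% of all genes had. Nor was any called for the interaction of genotype and sex in SP or in DMH, where 0% and 0% of genes were called by edgeR. *Gli2* in DMH was the only member under an unadjusted p of 0.05 there, at a difference of 0.33 of females from males (SE 0.14, edgeR, adjusted p = 1.0), and 2% of all genes were under it too. Without the embryo labelled female control 2 this difference was 0.34 (SE 0.16). Both female DMH mutants of this test were low in caudal *Hox*, as were female control 1 and male mutant 2. The part of caudal *Hox* in the difference was not tested. DESeq2 also called no member in these 3 tests, and 6, 3 and 12 of all genes.

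Of the 6 other lists of the pathway none of 40 tested genes was called between genotypes in SP and none of 45 in DMH, by edgeR or by DESeq2. At an unadjusted p under 0.05 there were 3 of 40 genes in SP (*Nkx6-2*, *Olig2* and *Ccnd1*), against 5.07% of all genes, and 8 of 45 in DMH, against 15% of all genes. Among the 8 were the dorsal genes *Pax3* (0.35, SE 0.12) and *Wnt1* (0.55, SE 0.20) and the ventral genes *Nkx2-2* (0.43, SE 0.16) and *Olig1* (-0.45, SE 0.16). The median log2 fold change in DMH was 0.05 over ventral and 0.21 over dorsal patterning genes, against -0.00 over all genes. In the DMH libraries low in caudal *Hox*, dorsal patterning genes summed to 134 to 150 CPM, against 74.9 to 123 CPM in the other 7, and hypothalamus markers to 191 to 227 against 95.7 to 166 CPM. Ventral patterning genes (133.2 to 140.4 against 117.5 to 133.0 CPM), proliferation targets (802 to 1006 against 481 to 704 CPM), pituitary markers (34.7 to 49.0 against 15.9 to 30.4 CPM) and markers of diencephalon, midbrain and hindbrain (1126 to 1421 against 660 to 930 CPM) were also higher there without overlap. Markers of meninges and mesenchyme were lower, at 698 to 858 against 872 to 1160 CPM.

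Whether the ligand and the response genes varied together across embryos was asked in 12 relations (6 pairs in each region, two-sided permutation tests on log2(CPM + 0.5), exact in DMH). In the 12 SP libraries *Ptch1* and *Shh* gave r = 0.74 (p = 0.012, adjusted 0.047) and rho = 0.63 (permutation p = 0.033, adjusted 0.19), and *Ptch1* and *Hhip* r = 0.70 (p = 0.011, adjusted 0.047) and rho = 0.55 (permutation p = 0.071, adjusted 0.19). Without the 2 libraries farthest in the measure on the x axis r was 0.42 and 0.33. Leaving these out also narrows the range of that measure, so a lower r alone does not show that both rest on those libraries. In the 7 DMH libraries with caudal *Hox*, *Hhip* and *Shh* gave r = -0.93 (exact permutation p = 0.0083, adjusted 0.047) and rho = -0.75 (exact permutation p = 0.066, adjusted 0.19), and r = -0.33 without 2 libraries. *Gli1* and *Shh* gave r = 0.59 in SP (adjusted permutation p = 0.091, rho = 0.49) and 0.48 in DMH (adjusted exact permutation p = 0.39, rho = 0.64). With female mutant 3 left out in SP and added in DMH, the adjusted permutation p of each of these 3 relations was 0.11, so none passed, and none had an adjusted p under 0.05 by rho.

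In the DMH library of female mutant 3, 5 of 9 members were above all 6 controls, as were 16.4% of all genes tested, and in its SP library 1 of 9 was (*Shh*), against 8.66% of all genes. *Gli1* was at 11.2 CPM there, against 4.42 to 6.44 CPM in the other 11 DMH libraries, and *Hhip* at 19.6 CPM, against 4.28 to 10.8 CPM. *Cdon* was at 62.1 CPM (39.8 to 49.1 CPM elsewhere). *Shh* was at 7.21 CPM and *Smo* at 60.4 CPM, within the range of the others. *Ihh*, the ligand of growing cartilage, was at 3.11 CPM, against 0.0330 to 0.164 CPM, and *Scube2* at 11.4 CPM, against 3.80 to 5.40 CPM.

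Markers of other tissues were also high in the DMH library of female mutant 3. Cartilage markers summed to 2117 CPM in this library, against 93.9 to 118 CPM, and *Acan* alone was at 113 CPM, against 0.0351 to 0.330 CPM. Skeletal muscle markers summed to 649 CPM, against 5.75 to 8.31 CPM, and *Myog* was at 18.4 CPM, against 0 to 0.0756 CPM. Markers of meninges and mesenchyme summed to 3186 CPM, against 698 to 1160 CPM. Their part in the levels of *Gli1*, *Hhip* and *Cdon* was not tested. In its SP library, where cartilage markers summed to 66.5 CPM and those of muscle to 2.81 CPM, *Gli1* was at 4.87 CPM and *Hhip* at 3.83 CPM, within the range of the other 11 SP libraries. With female mutant 3 included none of the members was called between genotypes in DMH, and the log2 fold change of *Hhip* was 0.23 (SE 0.40) in place of -0.31 (SE 0.17).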

How the data were processed

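Total RNA was isolated by the authors from SP and DMH of 12 embryos, and stranded (dUTP) libraries of polyadenylated RNA were sequenced as read pairs. Per the submitters' processing notes cutadapt 2.4, STAR 2.6.1d and edgeR were used with GRCm38.p6 (mm10). The annotation release is not given in the sources used here. The authors deposited, for each library, raw counts of read pairs per gene without normalisation, from which 17.3 to 25.9% of fragments, on no single gene, were left out. The counts of the strand that dUTP libraries read were used. Of 54446 identifiers 54409 matched a symbol of GENCODE vM21. No libraries of a group were copies (lowest chi-square per gene 9.62 over 24 pairs).

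Models were fitted by the robust quasi-likelihood method of edgeR 4.0.16 (R 4.3.3) after filterByExpr and TMM, and DESeq2 1.42.0 was an alternative. Each SE was derived from the F statistic of its gene. DMH libraries were called low in caudal *Hox* at under 0.1 of the DMH median. Only the quasi-likelihood test of edgeR was tested on simulated data. This covered some of the comparisons, with changes larger than those of the members between genotypes. A gene of the receptor list is counted but not reported here. Members and lists were chosen with earlier results of these data known. Genes named are the members, *Tfap2b*, called genes of the lists or up to 4 of a list by p, the 5 genes most like *Shh* and markers. Single markers beside female mutant 3, *Foxa2*, *Sufu* and *Gli2* as an example promoter were chosen after their values were seen. SP and DMH come from the same embryos by the study's design (correlation of deviations 0.13 to 0.673 over 11 embryos). Alternatives were RLE scaling, no filter, unstranded counts, other thresholds, blocks and other sets of libraries. Plots were made in matplotlib 3.10.9 (Python 3.11.15).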

Additional observations from a re-analysis of the deposited data

Results flagged for a closer look

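Among 36 groups of 6 libraries (a member in a region and genotype), 6 held a library whose gap to the next was beyond Dixon's limit, while chance gives about 1 in 20 groups. Of these, 3 were the DMH library of female mutant 3, at 62.1 CPM for *Cdon*, 11.2 CPM for *Gli1* and 19.6 CPM for *Hhip*, described above beside the markers of cartilage, muscle and meninges. *Shh* was at 1.42 CPM in male SP control 3, the library with the lowest sums of hypothalamus markers and ventral patterning genes. *Ptch1* was at 109 CPM in female DMH control 1, the control low in caudal *Hox*, and *Hhip* at 4.72 CPM in male SP mutant 1.

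Female mutant 3 entered no comparison, and 5 of 9 members were above all 6 controls in its DMH library, as were 16.4% of all genes tested: *Cdon* (62.1 CPM against at most 49.1), *Gli1* (11.2 against 6.44), *Gli2* (19.1 against 16.3), *Hhip* (19.6 against 10.8) and, narrowly, *Ptch1* (129 against 127 CPM). In its SP library 1 member was, and 8.66% of all genes were: *Shh* at 5.40 CPM against at most 4.47 CPM, and female SP mutant 2 was higher still at 5.94 CPM.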

How the results depend on the processing

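In the comparisons between genotypes and the interactions no member was called in the main fit. None was under RLE size factors, no filter, unstranded counts, DESeq2, the block, the other sets of libraries and each embryo left out. An adjusted p under 0.05 and no fold threshold reread the main fits. The lowest adjusted p of a member in these was 0.33 (edgeR), so neither setting could add a call. Between the regions the number of members called kept within 1.5 times of its main value in all of these settings. It was 8 of 9 between the regions in the main comparison, 7 in mutant embryos alone (6216 of 17148 genes called), where *Boc* was at -0.47, and 9 without a fold threshold, which added *Gli1* (0.18) and called 14142 of all 17465 genes. With the embryo as a block it was 8, and with the replicate number of the label as a block no genotype comparison called a member. Control and mutant of the same number share only that number (correlation -0.278 to 0.473 over 10 pairs), and under this block *Ptch1* was at 0.017 in DMH.

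Some members changed sign between genotypes, none of them called, and the cause was not tested. In SP without male control 3 and male mutant 3, chosen after seeing the data, *Ptch1* was at -0.016 and *Boc* at 0.0048. In DMH *Ptch1* (-0.0029) was at 0.0035 with unstranded counts, 0.017 with female mutant 3, 0.042 without libraries low in caudal *Hox* and 0.052 with caudal *Hox* as a covariate. *Gli1* in DMH was at 0.15 with female mutant 3 and 0.039 with the covariate, *Hhip* at 0.23 (from -0.31) with female mutant 3, *Gli2* at -0.038 (from 0.22) without the low libraries, and the interaction of genotype and region of *Hhip* at 0.044 (from -0.45) with female mutant 3. Leaving out each embryo gave -0.030 to 0.13 for *Ptch1*, -0.10 to 0.028 for *Boc*, -0.011 to 0.11 for *Cdon* and -0.066 to 0.12 for *Gli1* in SP, and -0.025 to 0.015 for *Ptch1* in DMH.

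Of 12 correlations 3 passed by r, 0 by rho and 0 with female mutant 3 left out in SP and added in DMH. In SP *Shh* and *Hhip* had rho = -0.049, against r = 0.29. With female mutant 3 in DMH r was -0.24 for *Shh* and *Gli1*, 0.22 for *Gli1* and *Ptch1* (rho without it 0.11), 0.72 for *Gli1* and *Hhip* and 0.10 for *Ptch1* and *Hhip*. Of TPM in place of CPM per kb, no member changed its side between the regions.

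The number of all genes called between genotypes varied with the setting. In DMH it was 9, but 51 by DESeq2 and 531 without male mutant 1. In female DMH it was 1, but 69 by DESeq2 and 1117 without female control 1. In SP it was 0, but 27 by DESeq2, and in female SP 3, but 71 with the replicate number as a block. The members called stayed at 0 there, but a count out of 9 genes cannot be compared for stability with counts over all genes. The interaction of genotype and sex in DMH could not be fitted without the libraries low in caudal *Hox*, since no female mutant was left. Counts of *Shh*, *Hhip* and *Gli1* under 100 in some libraries limit their precision, and intervals cover these embryos only.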
